A study of Homo sapiens with 6 samples.

Results

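The transcription factors that set the B cell state apart from the plasma cell state were followed after silencing of Che-1 in KMS-27, a line of human multiple myeloma cells. The group was given as 10 named genes: IRF4, PRDM1 and XBP1 of plasma cells, the repressors BACH2 and BCL6, and PAX5, EBF1, POU2F2, POU2AF1 and SPIB of the B cell program. Of these, 9 had values in the deposited tables, which cover 16444 genes in a table scaled on spike-ins and 12075 genes in a table of FPKM, fragments per kilobase and library size. PAX5 was not analysed here. The siChe-1 libraries (Che-1 silencing, 3 libraries) were set against siControl libraries (control, 3 libraries). All came from total RNA of the same line, with ribosomal RNA removed. Che-1 is the protein encoded by AATF and binds RNA polymerase II. The labels give no time after silencing, nor whether the 3 libraries per group were grown separately. P-values therefore reflect the spread among the libraries at hand, which may be technical. In these bulk samples, fewer cells of a type and less RNA per cell cannot be told apart.

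A B cell becomes an antibody-secreting plasma cell when one network of transcription factors replaces another. PAX5 and EBF1 hold the B cell program, BCL6 the germinal centre state, and BACH2 delays the switch by repressing PRDM1. IRF4 and PRDM1 (Blimp-1) drive the switch and silence much of the B cell program, after which XBP1 enlarges the secretory apparatus. The octamer-binding factor POU2F2 (Oct-2), its coactivator POU2AF1 (OBF-1) and the ETS factor SPIB serve B cells before the switch. Myeloma cells, as malignant plasma cells, are known to depend on IRF4.

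AATF was lower in the siChe-1 libraries, at 0.0656 of siControl in the authors' deposited table (log2 -3.93, adjusted p = 1.56e-13). The libraries had the markers of the labelled cell type. Of 6 plasma cell markers other than members, IGJ was too abundant for its reads per library to be recovered. It averaged 9719 FPKM in siChe-1 and 8739 FPKM in siControl. CPM values are reads per total reads, with TMM scaling to the libraries' typical genes. Summed over the other 5 markers, they were 685 to 689 in siChe-1 and 559 to 630.2 in siControl. Of 5 markers of mature B cells, CD79A alone was found, with 20 reads in 5 libraries. Markers of other cells were low. T cell markers (4 of 7 found) summed to 1.76 to 3.16 in siChe-1 and 1.39 to 1.63 in siControl. Myeloid markers (5 of 7 found) summed to 6.56 to 9.08 in siChe-1 and 4.16 to 5.52 in siControl. Of 3 myeloid markers tested, CD68 alone was called, higher in siChe-1 (log2 0.94, edgeR adjusted p = 0.00969). Markers of red cells and platelets (3 of 7) reached 0.300 in siChe-1 and 0.401 in siControl, and those of stroma and epithelium (4 of 8) reached 1.24 in siChe-1 and 2.14 in siControl. None of the markers found was at 0 reads in all 5 libraries, and their part in the results was not tested.

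Levels were measured on scales that answer different questions. FPKM covers all 6 libraries and shows a gene relative to other genes. The spike-in table shows a gene against RNA molecules added from outside, and it holds 5 libraries, since siChe-1 replicate 3 is not in it. Whole reads per library were recovered from that table, 21231135 and 22409081 in siChe-1 and 22163759 to 24297915 in siControl. Spike-in reads were 379232 to 1041244 in siChe-1, lowest in replicate 3, and 351573 to 519573 in siControl. The siChe-1 libraries in the spike-in table had 835414 and 1041244, above all siControl libraries. Replicate 3, which is not in it, lay within the siControl range. Its gene reads are unknown, so what it would change on that scale was not tested. FPKM values carry no replicate number and are given in the order of the table.

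Relative to other genes, 3 members were called, in both directions. XBP1 fell, SPIB and POU2F2 rose, and IRF4, PRDM1, BACH2, BCL6 and POU2AF1 did not pass the test. With limma at a mean FPKM of 10 or more, 1 of the 3 members tested was called, XBP1, where 30.2% of all 6285 genes were called (15.1% higher and 15.1% lower). Among genes of at least 1 FPKM, 2 of 6 members were called, XBP1 lower and SPIB higher, against 27.2% of 10778 genes (13.4% higher and 13.8% lower). In the recovered reads, edgeR with TMM scaling called 3 of 8 members, the same genes and POU2F2, against 28.8% of 12550 genes (14.0% higher and 14.7% lower). The shares of members called are near those of all genes. Their median log2 change was -0.13 in the reads, beside 0.00 for all genes (-0.00036 before rounding). Against the spike-ins, 5 of the 8 members with a mean of at least 10 passed the authors' adjusted p, all lower, where 63.6% of 12591 genes were called, 63.5% lower and 0.0635% higher. With edgeR on the recovered reads and the spike-in size factors, 5 of 8 members were called lower as well, beside 84.6% of 12550 genes (84.4% lower and 0.191% higher).

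**Figure D1:**
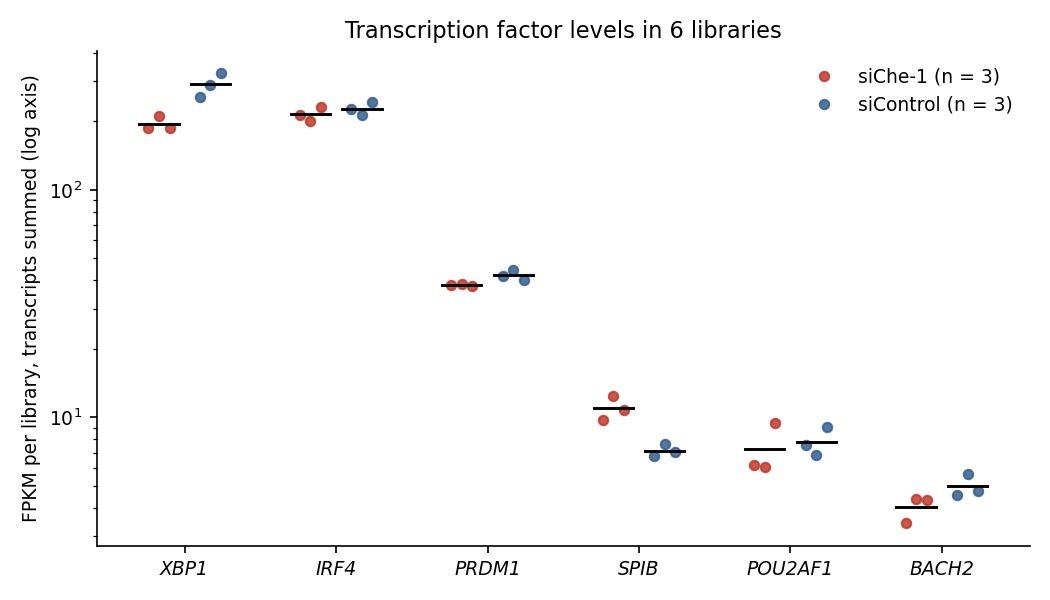
FPKM of the 6 factors in the FPKM table, 1 point per library (log axis), siChe-1 left and siControl right of each name, with bars at the group means. The groups lie farthest apart in XBP1 and SPIB, XBP1 at 187 to 212 in siChe-1 and 257 to 325 in siControl.

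The levels spanned a wide range. By mean FPKM over 6 libraries, which is per length, XBP1 stood at 243 and IRF4 at 221, above 97.4% and 97.1% of the listed genes. PRDM1 followed at 40.1, SPIB at 9.05, POU2AF1 at 7.53 and BACH2 at 4.52, the last above 31.1% of genes. XBP1 was above IRF4 in each siControl library and overlapped with it in siChe-1, and SPIB and POU2AF1 did not differ beyond their spread in siControl. The plasma cell factors were above the B cell factors in both groups. BCL6, POU2F2 and EBF1 were found in the spike-in table alone, with 65, 200 and 18 reads in 5 libraries.

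XBP1, the factor of the unfolded protein response and of secretion, was lower in siChe-1 on both scales. Its gene lies on chromosome 22 from 29190548 to 29196560, minus strand, in hg19. FPKM were 188, 212 and 187 in siChe-1 (mean 196 ± 14.2, SD, n = 3) and 257, 289 and 325 in siControl (290.4 ± 34.5, SD, n = 3). Every siChe-1 library lay below every siControl library. On the log2(FPKM + 1) scale it fell by 0.47 ± 0.12 (SE, limma adjusted p = 0.0201). In recovered reads it had 7846 and 8978 in siChe-1 against 10229, 11780 and 14065 in siControl, a log2 change of -0.52 ± 0.12 with edgeR and TMM (adjusted p = 0.00663). The limma call was lost without the siChe-1 library in position 1 (adjusted p = 0.0663) or 3 (0.0884) of the FPKM list or the siControl library in position 3 (0.0703), and the edgeR call without siChe-1 replicate 1 (0.0593), with log2 changes of -0.41 to -0.48. Against the spike-ins the authors' deposited table gives a log2 of -1.79 (adjusted p = 0.00575), beside a median of -1.25 over 12591 genes. Of these genes, 9.69% fell more.

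XBP1 protein is made active by an unusual cut of its RNA. The enzyme IRE1 removes a short stretch from the mature message in the cytoplasm, and the shifted reading frame encodes the active factor. The FPKM table lists the form with the stretch (NM_005080) and the form without it (NM_001079539), so the stretch is shown here with 15 bases on each side. It was read from the GENCODE models matched to both RefSeq names. The 26 bases in capitals are those absent from the spliced form, placed so that both ends follow the letters CNG and come before CAG, as the enzyme cuts. The repeated flanks would let the placement shift by up to 6 bases.

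XBP1 (5′ to 3′, RNA sense, written as DNA): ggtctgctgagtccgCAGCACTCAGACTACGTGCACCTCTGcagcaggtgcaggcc

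The spliced form stood at 100.4, 44.5 and 118 FPKM in siChe-1 and at 146, 103 and 206 FPKM in siControl. The unspliced form stood at 87.4, 167 and 69.3 FPKM in siChe-1 and at 110.3, 186 and 120 FPKM in siControl. In each group the second library of the list had the least spliced form and the most unspliced form, so that the groups overlapped on either form. The share of the spliced form in XBP1 was 45.8 ± 21.98% in siChe-1 and 52.0 ± 14.4% in siControl (SD, n = 3 each, exact permutation test, two-sided p = 0.6, adjusted over 2 shares 0.6). The authors' deposited table gives log2 changes of -0.79 for the spliced form (q = 0.246) and -0.36 for the unspliced form (q = 0.612). How many reads told the forms apart is unknown.

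Most secretory genes that XBP1 activates did not pass the test. Of 31 listed, 29 were tested with limma at 10 FPKM: 4 fell, 3 rose and 22 did not pass, with a median log2 of 0.03 beside 0.00 for all genes (-0.00396 before rounding). In the same fit 30.2% of all 6285 genes were called, 15.1% in each direction. At a minimum of 1 FPKM 4 of 31 fell (13.8% of all genes), and in the recovered reads 3 of 30 (14.7% of all genes). The genes that fell were SSR1 (-0.89 ± 0.09 SE, limma adjusted p = 0.000892) and SSR3 (-0.67 ± 0.09, adjusted p = 0.00266), subunits of the translocon-associated protein complex, SERP1 (-0.76 ± 0.09, adjusted p = 0.00134), which binds the translocon under stress, and SEL1L (-0.39 ± 0.09, adjusted p = 0.0148), a part of the machinery that removes misfolded proteins. SSR1 averaged 43.4 ± 1.53 FPKM in siChe-1 and 86.7 ± 7.52 FPKM in siControl (SD, n = 3 each). Of the genes that rose, SEC24D and SEC31A are parts of the COPII coat and SRPR is the receptor of the signal recognition particle. Their log2 changes were 0.31, 0.27 and 0.36, and none of these 3 was called at a minimum of 1 FPKM or in the recovered reads. The most abundant member of the list, PDIA6, a protein disulfide isomerase, had 693 ± 66.0 FPKM in siChe-1 and 658 ± 62.7 FPKM in siControl (SD, n = 3 each, limma adjusted p = 0.300). DNAJB9, a classical XBP1 target, had a log2 change of 0.54 ± 0.23 (limma adjusted p = 0.117), and HERPUD1 one of 0.32 ± 0.11 (adjusted p = 0.0550). Against the spike-ins, 27 of 31 were lower by the authors' adjusted p, with a median log2 of -1.35 beside -1.25 for all genes, of which 63.5% were lower. DNAJB9 and HERPUD1 were picked for the text after their values had been seen.

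**Figure D2:**
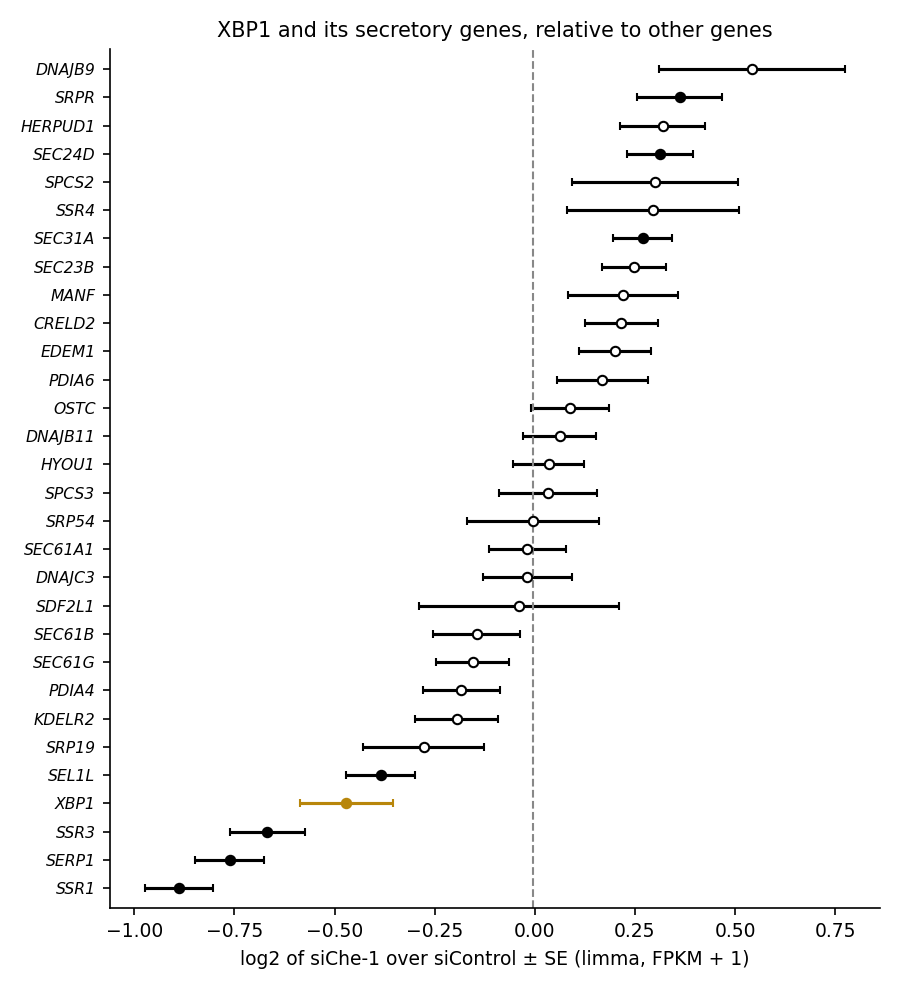
log2 change of XBP1 (gold) and 29 secretory genes that it activates, relative to other genes, with bars of 1 SE. Filled points passed the limma adjusted p of 0.05 and the dashed line marks the median of all genes. XBP1 lies at -0.47 among 4 genes that fell, SSR1, SERP1, SSR3 and SEL1L, while most of the list lies around the line.

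IRF4, the master factor of myeloma cells, did not pass the test relative to other genes. It lies on chromosome 6 from 391739 to 411443, plus strand, in hg19. FPKM were 213, 201 and 231 in siChe-1 (mean 215 ± 14.9, SD, n = 3) and 226, 214 and 243 in siControl (228 ± 14.5, SD, n = 3), and the groups overlapped. The log2 change was 0.01 ± 0.09 (SE, limma adjusted p = 0.944), and -0.08 with the deposited scaling, so that its sign differed between alternatives (-0.27 to 0.08). Recovered reads were 29765 and 25763 in siChe-1 and 29700, 26626 and 32975 in siControl (edgeR log2 -0.10 ± 0.12, adjusted p = 0.574). The siControl reads of this abundant gene rest on the assumption that no library held less than 0.5 of the group mean. The form NM_002460 made up 56.3 ± 2.67% of IRF4 FPKM in siChe-1 and 57.2 ± 0.73% in siControl, and a noncoding form, NR_036585, 43.1 ± 3.36% in siChe-1 and 42.1 ± 0.69% in siControl (SD, n = 3 each). Against the spike-ins IRF4 was lower, with a log2 of -1.33 in the authors' deposited table (adjusted p = 0.00441), and 41.8% of genes fell more. With edgeR and without siChe-1 replicate 2 this call was lost (log2 -1.08, adjusted p = 0.0699).

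The genes known to be driven with IRF4 in myeloma moved in both directions. Of 8 tested with limma at 10 FPKM, 3 rose and 2 fell, with a median log2 of -0.01 beside 0.00 for all genes, of which 15.1% were called in each direction. MYC, a growth-promoting transcription factor in a positive loop with IRF4, fell by 0.92 ± 0.10 on the log2 scale (limma adjusted p = 0.00109), at 145 ± 7.35 FPKM in siChe-1 and 293 ± 14.7 FPKM in siControl (SD, n = 3 each). CDK6, a kinase of the cell cycle, rose by 0.83 ± 0.11 (limma adjusted p = 0.00206), at 83.1 ± 8.19 FPKM in siChe-1 and 49.5 ± 4.68 FPKM in siControl. CCNC, cyclin C, fell by 0.57 on the log2 scale (limma adjusted p = 0.00615). KLF13 and CASP8 rose by 0.33 and 0.25 in the limma fit (adjusted p = 0.0244 and 0.0456), and neither was called in the recovered reads. The most abundant member, SUB1, a transcription coactivator, had 956 ± 223 FPKM in siChe-1 and 1118 ± 251 FPKM in siControl (limma adjusted p = 0.676).

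PRDM1, the repressor that ends the B cell program, did not pass the test relative to other genes either. It lies on chromosome 6 from 106534195 to 106557814, plus strand, in hg19. FPKM were 38.3, 38.5 and 37.6 in siChe-1 (mean 38.1 ± 0.47, SD, n = 3) and 41.9, 44.3 and 40.01 in siControl (42.1 ± 2.15, SD, n = 3). As deposited, every siChe-1 library lay below every siControl library. After the libraries had been rescaled on their genes, the log2 change was -0.04 ± 0.08 (SE, limma adjusted p = 0.719), and it was 0.02 with upper quartile scaling. Recovered reads were 5961 and 6148 in siChe-1 and 6336, 6761 and 6989 in siControl (edgeR log2 -0.15 ± 0.10, adjusted p = 0.290). As TMM-scaled CPM these are 273 and 264 in siChe-1 and 294, 301 and 299.5 in siControl, again with no overlap. The shorter form NM_182907, which lacks the start of the protein and is a weaker repressor, made up 38.8, 21.6 and 22.04% of PRDM1 FPKM in siChe-1 and 31.3, 16.5 and 11.3% in siControl (exact permutation test, two-sided p = 0.4, adjusted over 2 shares 0.6). Against the spike-ins PRDM1 had a log2 of -1.40 in the authors' deposited table (adjusted p = 0.00365). With edgeR and without siChe-1 replicate 2 this call was lost (log2 -1.25, adjusted p = 0.0523).

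BACH2, the repressor that holds back PRDM1, was low and did not pass the test. It lies on chromosome 6 from 90636247 to 91006627, minus strand, in hg19. FPKM were 3.43, 4.39 and 4.34 in siChe-1 (mean 4.05 ± 0.54, SD, n = 3) and 4.58, 5.65 and 4.75 in siControl (4.99 ± 0.57, SD, n = 3), with no overlap as deposited. The log2 change was -0.22 ± 0.11 (SE, limma at 1 FPKM, adjusted p = 0.175). Recovered reads were 800 and 995 in siChe-1 and 1006, 1251 and 1118 in siControl (edgeR log2 -0.34 ± 0.12, adjusted p = 0.0578). In the authors' deposited table its log2 was -1.61 (adjusted p = 0.00701).

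BCL6, the repressor of the germinal centre, was close to the limit of these data. It had 18 and 19 reads in siChe-1 against 10, 14 and 4 reads in siControl. Both siChe-1 libraries lay above the siControl libraries, and the log2 change was 0.97 ± 0.47 (SE, edgeR with TMM, adjusted p = 0.141). Against the spike-ins its log2 was -0.27 in the authors' deposited table (adjusted p = 0.952). The relative log2 change ranged from 0.58 to 1.37 over its 9 alternatives and the spike-in log2 from -0.58 to 0.31 over its own, with either sign.

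The corepressors and other partners with which PRDM1, BCL6 and BACH2 work moved in both directions. Of 13 tested with limma at 10 FPKM, 4 rose and 3 fell, with a median log2 of -0.03 beside 0.00 for all genes, of which 15.1% were called in each direction. MAFG, a small Maf partner of BACH2, rose by 0.50 ± 0.08 (limma adjusted p = 0.00392), and SIN3A, a scaffold of histone deacetylase complexes, by 0.28 ± 0.07 (adjusted p = 0.0193). HDAC1, the most abundant, had 81.9 ± 4.75 FPKM in siChe-1 and 68.3 ± 6.71 FPKM in siControl (SD, n = 3 each, limma adjusted p = 0.0231). NCOR1 rose as well (0.28, limma adjusted p = 0.0475). Of these 4, MAFG alone was also called in the recovered reads. The genes that fell in the limma fit were PRMT5 and KDM1A, enzymes that modify histones, and RCOR1, a scaffold for KDM1A. Their log2 changes were -0.37, -0.32 and -0.40 (limma adjusted p = 0.0359, 0.0421 and 0.0406). RCOR1 averaged 8.71 FPKM in siChe-1 and 12.6 FPKM in siControl, and so reached the minimum mean of 10 FPKM through siControl alone. A fall of RCOR1 in the limma fit was thus favoured by that choice. All 3 were also called lower in the recovered reads (edgeR adjusted p = 0.0199, 0.0128 and 0.00433). There 2 of 20 rose and 4 fell, beside 14.0% and 14.7% of all genes. The 20 include HMOX1, an enzyme and not a corepressor, which was not called (edgeR adjusted p = 0.678). TLE4 rose (log2 1.08, edgeR adjusted p = 0.000243) and MAFK fell (-0.41, edgeR adjusted p = 0.0450).

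**Figure D3:**
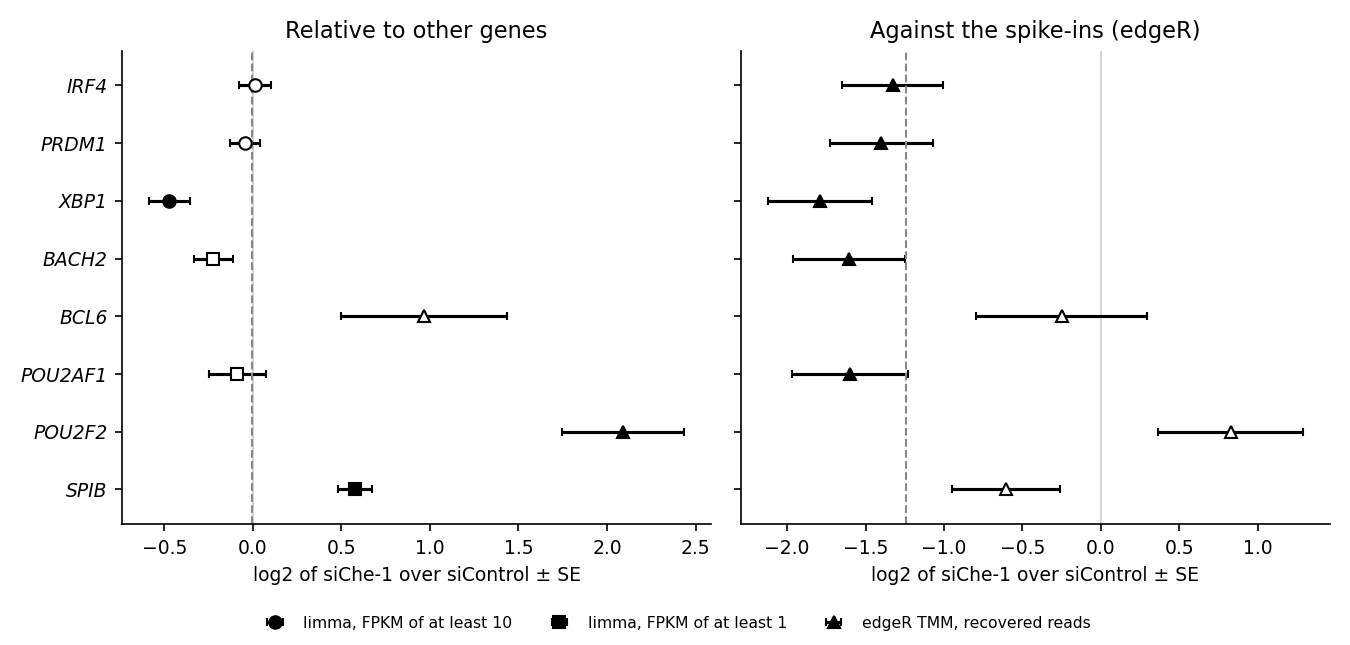
log2 of siChe-1 over siControl with bars of 1 SE for 8 factors, relative to other genes (left) and against the spike-ins with edgeR (right). Filled points had an adjusted p under 0.05 and dashed lines mark the medians of all genes, near 0 and at -1.25. On the left, XBP1, IRF4 and PRDM1 are from limma at 10 FPKM, as is the dashed line. BACH2, POU2AF1 and SPIB are there from limma at 1 FPKM, and BCL6 and POU2F2 from edgeR with TMM. Points of different fits are not strictly comparable. As drawn, POU2F2 lies farthest to the right in both panels, at 2.09 and 0.83, and XBP1 farthest to the left, at -0.47 and -1.79.

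SPIB, an ETS factor of B cells that PRDM1 is known to repress, rose relative to other genes. It lies on chromosome 19 from 50922195 to 50934309, plus strand, in hg19. FPKM were 9.71, 12.4 and 10.8 in siChe-1 (mean 10.96 ± 1.35, SD, n = 3) and 6.78, 7.62 and 7.03 in siControl (7.14 ± 0.43, SD, n = 3). Every siChe-1 library lay above every siControl library. The log2 change was 0.58 ± 0.10 (SE, limma at 1 FPKM, adjusted p = 0.00570). Recovered reads were 1361 and 1310 in siChe-1 and 806, 849 and 911 in siControl (edgeR log2 0.64 ± 0.11, adjusted p = 0.000980). Against the spike-ins the authors' deposited table gives a log2 of -0.60 (adjusted p = 0.230), less negative than in 91.5% of genes. Its relative rise thus stands beside a value below 0 on the spike-in scale that did not pass. Most of its FPKM came from NM_003121, at 9.71, 8.13 and 10.8 in siChe-1 and 6.78, 7.14 and 6.41 in siControl. That was the only one of 12 listed transcripts of the members with an unadjusted p under 0.05 in the authors' deposited table (log2 0.49, p = 0.0269, q = 0.115), and none of the 12 passed q, where 18.3% of all 18750 transcripts did.

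POU2F2, the octamer factor of B cells, had the widest difference of the members but few reads. It had 82 and 66 reads in siChe-1 against 8, 19 and 25 reads in siControl. That is 3.29 ± 0.66 TMM-scaled CPM in siChe-1 (SD, n = 2) and 0.763 ± 0.357 in siControl (SD, n = 3), and the groups lie far apart. The log2 change was 2.09 ± 0.35 (SE, edgeR with TMM, adjusted p = 0.000789). On the spike-in scale the groups overlapped, at 54.8 and 34.6 in siChe-1 and 8.90, 30.7 and 37.7 in siControl. There its mean was 44.7 in siChe-1 and 25.8 in siControl. Its log2 was 0.80 in the authors' deposited table (adjusted p = 0.223), higher than in 99.8% of genes. POU2F2 lies on chromosome 19 and overlaps the noncoding genes LNROP and POU2F2-AS2 in RefSeq. The sources used here do not state that reads were counted by strand, and reads of these genes could then not be told apart from its own. The same holds for BCL6, which overlaps BCL6-AS1, and for BACH2, which overlaps noncoding genes.

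POU2AF1, the coactivator that binds POU2F2 on the octamer, did not pass the test relative to other genes. It lies on chromosome 11 from 111222981 to 111250157, minus strand, in hg19. FPKM were 6.20, 6.03 and 9.49 in siChe-1 (mean 7.24 ± 1.95, SD, n = 3) and 7.53, 6.86 and 9.04 in siControl (7.81 ± 1.12, SD, n = 3). The groups overlapped, and a single siChe-1 library held the highest value. The log2 change was -0.09 ± 0.16 (SE, limma at 1 FPKM, adjusted p = 0.729). Recovered reads were 542 and 414 in siChe-1 and 559, 489 and 811 in siControl (edgeR log2 -0.37 ± 0.19, adjusted p = 0.166). In the authors' deposited table its log2 was -1.60 (adjusted p = 0.0278). With edgeR and without siChe-1 replicate 2 this call was lost (log2 -1.28, adjusted p = 0.0693).

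**Figure D4:**
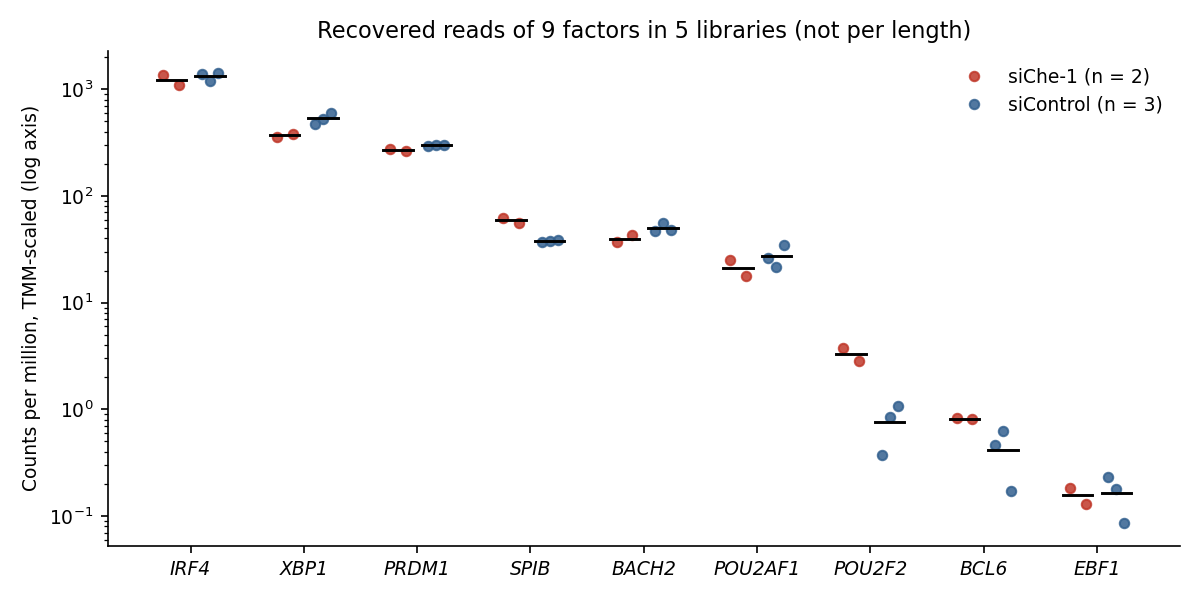
TMM-scaled CPM from recovered reads, 1 point per library of the spike-in table (log axis, not per length), siChe-1 left and siControl right of each name, with bars at the means. POU2F2 stands at 3.29 in siChe-1 and 0.763 in siControl, and EBF1, the lowest of the 9, at 0.156 in siChe-1 and 0.165 in siControl.

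EBF1, the pioneer factor of the B lineage, was barely present. It had 4 and 3 reads in siChe-1 and 5, 4 and 2 reads in siControl, a mean under the minimum for a test, and a difference was not detectable at this depth.

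The genes that PAX5 or EBF1 activate in B cells were mostly low. Of 23 listed, 8 reached the minimum mean for a test in the recovered reads, FCER2 through siChe-1 alone and CD53 through siControl alone. In the other 6 both groups reached it, and BANK1, CIITA, CD40 and SYK rose and CR2 fell with edgeR and TMM, where 14.0% of all genes rose and 14.7% fell. With so few of the list tested, these counts do not describe the list. BANK1, an adaptor of the B cell receptor and the most abundant, averaged 110 ± 1.70 FPKM in siChe-1 and 74.8 ± 4.11 FPKM in siControl (SD, n = 3 each, limma log2 0.64 ± 0.08, adjusted p = 0.00158). CIITA, the master activator of MHC class II genes and a known target of PRDM1 repression, had 285 and 234 reads in siChe-1 and 50, 57 and 59 reads in siControl (edgeR log2 2.23 ± 0.19, adjusted p = 1.08e-05). FCER2 (CD23), a receptor for IgE, had 47 and 56 reads in siChe-1 and 2, 0 and 7 reads in siControl (means of 30.4 in siChe-1 and 4.26 in siControl on the spike-in scale). CD40, a receptor for T cell help, and SYK, a kinase of the B cell receptor, rose by 1.14 and 1.25 in the same fit (adjusted p = 0.000545 and 0.00401). CR2, the complement receptor of B cells, went the other way, with 320 and 360 reads in siChe-1 and 1316, 1455 and 1480 reads in siControl (edgeR log2 -2.07 ± 0.12, adjusted p = 1.0e-06), and CD53, a tetraspanin, had means of 6.23 in siChe-1 and 41.1 in siControl on the spike-in scale. CIITA was also higher against the spike-ins, with a log2 value of 0.99 in the authors' deposited table (adjusted p = 0.0430). BANK1, CD40 and SYK had values of -0.66, -0.11 and -0.02 there and did not pass (authors' adjusted p = 0.167, 0.982 and 0.971). The sums of the T cell and myeloid markers given above were also higher in siChe-1, at levels of a few CPM. Of the 2 T cell and 3 myeloid markers tested with edgeR and TMM, CD68 alone was called. CD3G, LCK, ITGAM and LYZ had log2 changes of 0.16, 0.61, 0.13 and -0.16 and were not called. The part of these markers in the rises was not tested.

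**Figure D5:**
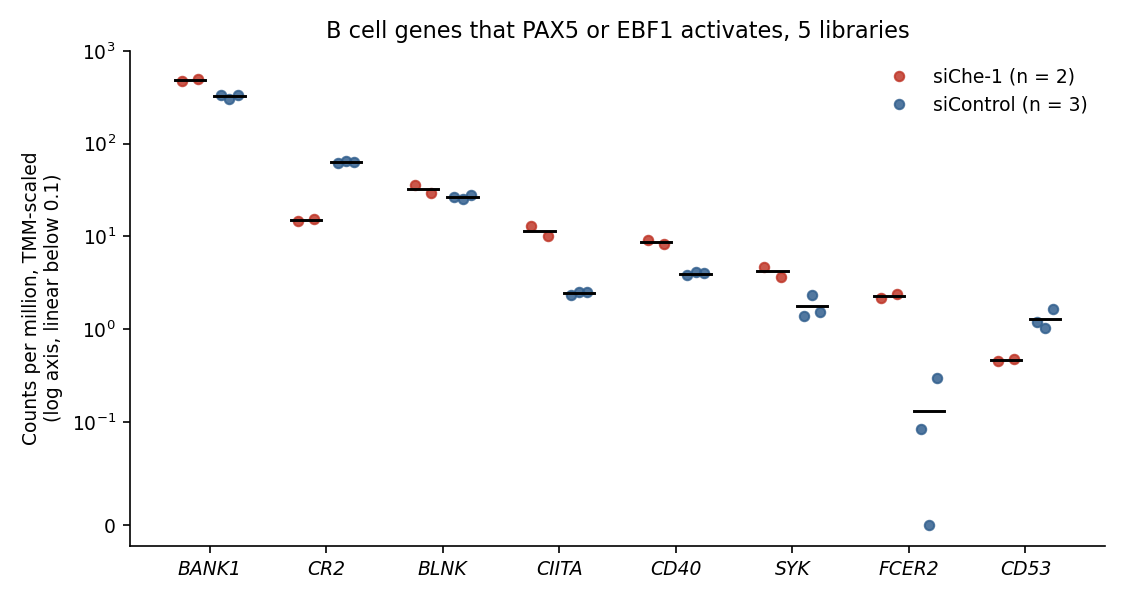
TMM-scaled CPM of the 8 testable B cell genes that PAX5 or EBF1 activate, 1 point per library, siChe-1 left and siControl right of each name, with bars at the means (log axis, linear below 0.1). CIITA is higher in both siChe-1 libraries than in any siControl library, and CR2 is lower. FCER2 reached the minimum mean through siChe-1 alone and CD53 through siControl alone, so a gap between their groups was favoured by that choice.

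Other transcription factors of the B lineage moved in both directions. Of 15 tested with limma at 10 FPKM, 4 rose and 2 fell, with a median log2 of 0.10 beside 0.00 for all genes, of which 15.1% were called in each direction. KLF2, a factor of quiescent B cells, averaged 16.1 ± 3.01 FPKM in siChe-1 and 9.49 ± 1.0 FPKM in siControl (SD, n = 3 each, limma log2 0.78 ± 0.15, adjusted p = 0.00832). MYB, a factor of progenitor cells, averaged 8.14 ± 0.73 FPKM in siChe-1 and 13.1 ± 0.79 FPKM in siControl (log2 -0.54 ± 0.11, limma adjusted p = 0.00927). KLF2 reached the minimum mean of 10 FPKM through siChe-1 alone and MYB through siControl alone. A gap between their groups was thus favoured by that choice. At a minimum of 1 FPKM, KLF2 was also called higher and MYB lower (limma adjusted p = 0.00854 and 0.00560). TCF4, IKZF3 and STAT6 rose by 0.57, 0.48 and 0.46, and IKZF1 fell by 0.24 on the log2 scale (limma adjusted p = 0.0121, 0.0102, 0.0437 and 0.0333). IKZF1 and IKZF3 encode Ikaros and Aiolos, related zinc finger factors that sustain IRF4 in myeloma. MEF2C, the most abundant, had 276 ± 23.5 FPKM in siChe-1 and 308 ± 29.3 FPKM in siControl (limma adjusted p = 0.683). In the recovered reads, 7 of 23 rose and 3 fell, beside 14.0% and 14.7% of all genes, with a median log2 of 0.02. Named after their values were seen, these included ZBTB20 (0.73 ± 0.14), RUNX3 (0.64 ± 0.14) and LMO2 (0.87 ± 0.30) among those that rose, and BCL11A (-0.91 ± 0.11), a zinc finger factor of early B cells, among those that fell (edgeR adjusted p = 0.00175, 0.00365, 0.0410 and 0.000118).

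Plasma cell identity genes likewise moved in both directions. Of 15 tested with limma at 10 FPKM, 6 rose and 3 fell, with a median log2 of 0.25 beside 0.00 for all genes, of which 15.1% were called in each direction. In the recovered reads 4 of 17 rose and 4 fell, beside 14.0% and 14.7% of all genes, with a median log2 of 0.12. ICAM1, an adhesion molecule, fell by 0.76 ± 0.11 on the log2 scale (limma adjusted p = 0.00341), at 13.2 ± 1.17 FPKM in siChe-1 and 24.6 ± 3.14 FPKM in siControl (SD, n = 3 each). MZB1, a chaperone of antibody assembly, and TXNDC5, a disulfide isomerase, fell by 0.46 and 0.37 on the log2 scale (limma adjusted p = 0.0398 and 0.0229). DERL3, a factor of endoplasmic reticulum degradation, rose by 0.50 ± 0.08 (limma adjusted p = 0.00419), and CD38, a surface enzyme of plasma cells, by 0.74 ± 0.12 (adjusted p = 0.00430). CREB3L2, CXCR4, ITGA4 and CD28 rose by 0.51, 0.47, 0.37 and 0.29 (limma adjusted p = 0.00568, 0.0112, 0.00990 and 0.0395). CD28 was not called at a minimum of 1 FPKM (limma adjusted p = 0.132) or in the recovered reads (edgeR adjusted p = 0.291), nor was DERL3 in the reads (edgeR adjusted p = 0.0784). IGJ, the joining chain of antibodies and the most abundant, had 9719 ± 1772 FPKM in siChe-1 and 8739 ± 1941 FPKM in siControl (limma adjusted p = 0.350). SDC1 (CD138), the defining surface marker, had 110.3 ± 22.4 FPKM in siChe-1 and 98.2 ± 15.2 FPKM in siControl (adjusted p = 0.320).

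Apart from the 1 added to both values before the log2, a ratio of 2 factors within a library does not depend on its scaling. That added 1 weighs more in ratios with low genes. Of 13 pairs, 9 had values, 5 of them in FPKM over 6 libraries. The log2 ratio of PRDM1 to SPIB was 1.87, 1.56 and 1.71 in siChe-1 and 2.46, 2.39 and 2.35 in siControl, a difference of -0.69. The log2 ratio of XBP1 to PRDM1 differed by -0.43 and that of XBP1 to IRF4 by -0.48. In each of these 3 pairs the groups did not overlap, and the exact permutation test gave a two-sided p of 0.1, the smallest that 3 against 3 libraries allow (0.167 adjusted over 5 pairs). PRDM1 to BACH2 differed by 0.11 (exact permutation p = 0.4) and IRF4 to POU2AF1 by 0.03 (exact permutation p = 0.9), with overlapping groups. In the recovered reads of 2 siChe-1 and 3 siControl libraries, XBP1 to IRF4 overlapped, at -1.92 and -1.52 in siChe-1 and -1.54, -1.18 and -1.23 in siControl (difference -0.41, exact permutation p = 0.4). PRDM1 to SPIB and XBP1 to PRDM1 differed there by -0.79 and -0.36 without overlap, as did IRF4 to POU2AF1 by 0.25 (exact permutation p = 0.2 each). Pairs with BCL6 or POU2F2 rest on the same reads. The log2 ratio of POU2AF1 to POU2F2 was 2.71 and 2.63 in siChe-1 and 5.96, 4.61 and 4.96 in siControl, a difference of -2.51. PRDM1, IRF4 and BACH2 over BCL6 differed by -1.20, -1.15 and -1.38. None of these 4 pairs overlapped between the groups, and each had an exact permutation p of 0.2, the smallest possible (0.257 adjusted over 9 pairs). The pairs over BCL6 share its few reads and are not separate observations. The same holds for the pairs with XBP1 or SPIB, which restate the changes of these called genes. What share of all gene pairs has no overlap between the groups was not worked out, so these pairs have no background beside them.

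The promoters of the 3 called factors are shown for comparison, as the 250 bases before the start of each gene in RefSeq (GRCh38.p14), 5′ to 3′ on the strand of the gene. Capitals mark TATAAA or CCAAT, sought on both strands. These motifs were added after values had been seen. POU2F2 lies at chr19:42132447-42132696 on the minus strand, SPIB at chr19:50418688-50418937 on the plus strand, and XBP1, at its outer start, at chr22:28800570-28800819 on the minus strand.

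POU2F2: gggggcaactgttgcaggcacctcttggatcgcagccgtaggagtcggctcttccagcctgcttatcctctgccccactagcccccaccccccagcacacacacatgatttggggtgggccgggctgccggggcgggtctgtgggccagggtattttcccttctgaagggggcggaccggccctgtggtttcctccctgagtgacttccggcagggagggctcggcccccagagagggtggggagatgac

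SPIB: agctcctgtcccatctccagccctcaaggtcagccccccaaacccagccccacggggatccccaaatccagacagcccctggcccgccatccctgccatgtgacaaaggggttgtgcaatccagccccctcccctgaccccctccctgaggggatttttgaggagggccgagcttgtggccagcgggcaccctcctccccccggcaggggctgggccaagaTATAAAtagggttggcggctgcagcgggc

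XBP1: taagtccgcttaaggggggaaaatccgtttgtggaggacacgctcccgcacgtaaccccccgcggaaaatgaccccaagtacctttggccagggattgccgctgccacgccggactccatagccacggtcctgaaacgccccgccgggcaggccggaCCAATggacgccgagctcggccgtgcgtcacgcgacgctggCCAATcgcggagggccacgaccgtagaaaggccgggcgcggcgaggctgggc

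SPIB held TATAAA, ending 24 bases before the start, a motif found in 10.7% of 35116 promoters of this length. XBP1 held CCAAT at 89 and 48 bases before the start, a motif found in 32.0% of promoters, and POU2F2 held neither. Among the 9 members with a promoter in the table (12 entries), TATAAA was also found in IRF4 and PAX5 and CCAAT in EBF1. No member held the octamer ATGCAAAT (1.63% of promoters), the interferon response type motif (3.02%), the E-box CACGTG (6.34%) or the XBP1 type TGACGTGG (0.612%), and the ETS-IRF composite motif (2.41%) was found in EBF1 alone. These are matches of letters in a window and not evidence of binding.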

How the data were processed

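RNA of KMS-27 cells was sequenced in 6 libraries, 3 siChe-1 and 3 siControl, made with a stranded kit after removal of ribosomal RNA (500 ng of total RNA each), per the labels. The submitters' processing notes name TopHat, Cufflinks, Cuffdiff, HTSeq, DESeq2 and hg19, without versions or roles. Deposited were read counts of 92 spike-ins per library, unnormalized, a gene table whose signal is the authors' read count divided by spike-in size factors and averaged per group, with the authors' ratio (fold), log2 and p-value (the division was worked out from the values), and a transcript table with the authors' FPKM for each library, log2 and p-value and q-value, per the file headers.

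Whole reads were recovered from the signal for 16403 of 16444 genes (99.8%). Low group means were whole-read sums (100% of 2139 siChe-1 and 1327 siControl means below 3, relative tolerance 1e-13) only with siChe-1 replicates 1 and 2. The 41 genes not recovered, all abundant, hold 10.1% of the normalized siChe-1 reads and 10.5% of the siControl reads. A library of an abundant gene was assumed to hold at least 0.25 of its group mean (0.5 above a mean of 10000).

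FPKM of a gene is the sum of its transcripts on assembled chromosomes. Genes were kept at a mean of at least 10, rescaled by the median of ratios and tested as log2(FPKM + 1) with limma 3.58.1 and a mean-variance trend. The pseudocount understates changes of low genes. Members under 10 FPKM were tested at a minimum of 1, and those without FPKM with edgeR 4.0.16 (quasi-likelihood test, TMM) on recovered reads with a mean of at least 10. DESeq2 1.42.0 served as an alternative. On the spike-in scale the authors' adjusted p was used. That scale is shared by all genes of a library, so calls on it largely restate a single shift. Tests were two-sided, with Benjamini-Hochberg adjustment over all genes tested and a threshold of 0.05. The limma fit at 10 FPKM and the edgeR fit with TMM were tested on simulated data, the other fits were not.

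Transcript starts in the FPKM table count from 0 and were raised by 1. The depth behind FPKM is unknown. The members and lists were chosen with earlier results of these data known. Named were all members, AATF, and of each list its most abundant gene and the 2 called genes of smallest p. Others were named for counts of 5 or fewer, or after their values were seen.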

Additional observations from a re-analysis of the deposited data

How the results depend on the processing

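The sign of uncalled values changed under some alternatives. IRF4 relative to other genes, 0.01 as reported, was below 0 in 14 of 23: -0.051 at a minimum of 1 FPKM, -0.066 with none, -0.083 with the deposited scaling, -0.10 with edgeR and TMM, -0.058 with its replicate block, -0.11 with the median of ratios or DESeq2, -0.028 with the upper quartile of reads, -0.021 to 0.055 when each library was left out with limma and -0.27 to 0.04 with edgeR (siControl replicates 1, 2 and 3 gave -0.074, -0.18 and -0.054). PRDM1 reached 0.019 with the upper quartile and -0.11 to 0.013 with limma without single libraries, POU2AF1 0.026 without the siChe-1 library in position 2, BCL6 against the spike-ins 0.31 without siControl replicate 2, and the IRF4 to POU2AF1 ratio -0.048 to 0.17 without single libraries. No called value changed sign. Of the members, 1 was called with limma relative to other genes, 2 with a minimum of 1 FPKM or none, and 3 in the recovered reads with edgeR (TMM, median of ratios or upper quartile, the last added after seeing the data) or DESeq2, since more members could be tested there. Leaving out each library gave 0 to 1 with limma and 2 to 4 with edgeR, where a lone siChe-1 library was assumed to vary like those of siControl. Over all genes, 1897 were called in the limma fit (949 higher, 948 lower), 2934 with a minimum of 1 FPKM, 3044 with none, 3611 with edgeR and TMM, 3615 with the median of ratios, 3670 with the upper quartile and 3528 with DESeq2, and 984 to 1743 (limma) or 2107 to 4156 (edgeR) when each library was left out. The split moved with the scaling: the limma fit called 592 higher and 1279 lower with the deposited scaling and 1221 higher and 713 lower with the upper quartile, and edgeR with the upper quartile 2251 higher and 1419 lower. SPIB kept its relative call in 22 of 22 alternatives (log2 0.50 to 0.71), POU2F2 in 9 of 9 (1.77 to 2.42) and XBP1 in 19 of 23 (-0.41 to -0.60). POU2AF1 was called without siControl replicate 2 (log2 -0.51, edgeR adjusted p = 0.0377, 0.0377 to 0.993 over its alternatives).

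Against the spike-ins 5 members were called by the authors, and edgeR on the recovered reads gave 2 to 6 when each library was left out, the lowest without siChe-1 replicate 2. Then IRF4, PRDM1 and POU2AF1 were lost (adjusted p = 0.0699, 0.0523 and 0.0693). Over all genes 8009 were called by the authors, and 2879 to 11728 by edgeR when each library was left out. SPIB was called lower with DESeq2 (log2 -0.60, adjusted p = 0.0441) and without siControl replicate 1 (-0.78, edgeR adjusted p = 0.000761). The log2 ratio of IRF4 to POU2AF1 moved to 0.25 in the recovered reads.

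Replicate numbers are shared by siChe-1 and siControl in the titles, and 2 pairs are in the spike-in table, too few to show that they pair the samples (correlation of deviations 0.215 and 0.237). With the replicate block, edgeR relative to other genes called 4 members, BACH2 among them (log2 -0.37, adjusted p = 0.0260), and 3881 genes. Against the spike-ins the replicate block gave 0 members (adjusted p = 0.264 and 0.265 for those called without it) and 58 genes, 1 higher and 57 lower.

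With few reads, differences in EBF1 and BCL6 could not be resolved. With 2 siChe-1 libraries on the spike-in scale, each library there weighs heavily. The siChe-1 library missing from that scale had spike-in reads within the range of siControl, unlike the 2 libraries in it.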
